A study of Mus musculus with 2 samples.

Results

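The semaphorins, plexins and neuropilins of the striatum were examined in Cx30 KO and WT mice on day 1 after MPTP. Members were chosen by name: all probes apart from controls whose gene name begins with *Sema* and a digit or with *Plxn*, or is *Nrp1* or *Nrp2*. This gave 79 of the 56605 probes on the array and 33 of its 37074 gene names. Of these, 31 genes, 20 semaphorins, 9 plexins and both neuropilins, had a probe with signal well above background in WT, in Cx30 KO or in both. The other two names, *Plxna4os1* and *Plxna4os2*, are transcripts antisense to *Plxna4*, and their probes were not well above background on either array.

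The values come from 2 single-colour Agilent arrays, 1 for each genotype, each of which carried RNA pooled from the striata of 2 males aged 8 weeks. MPTP, a toxin of dopaminergic neurons, had been injected intraperitoneally 4 times at 20 mg/kg, with 2 h between injections. The Cx30 KO mice lack the gap junction protein connexin 30, encoded by *Gjb6*, and their strain is labelled Cx30-LacZ, whereas the WT strain is labelled C57BL/6J. According to the methods, the WT mice were non-mutant offspring of heterozygous parents. Both groups had received MPTP. No arrays of saline-treated mice are analysed here, and the ratios compare the genotypes after the toxin and not the response to it. Both arrays lay on 1 slide and were scanned in 1 run, and array position and genotype cannot be told apart. *Gjb6* itself read 1788 in WT against 111 in Cx30 KO (log2 ratio, −3.94).

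Semaphorins are secreted or membrane-bound guidance proteins, known for repelling or attracting growing axons. Most membrane-bound semaphorins bind plexins directly, whereas most secreted class 3 semaphorins bind neuropilin 1 or 2, which pass the signal to an A-type plexin, and plexins then act on small GTPases and the cytoskeleton. In the adult brain members of the family are also made by oligodendrocytes, endothelial cells and microglia.

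Of the 31 genes, 3 were lower in Cx30 KO by the study's criteria and 2 were higher. The genes that were lower were *Plxnb3*, a plexin known from oligodendrocytes, and the class 3 ligands *Sema3e* and *Sema3a*. The genes that were higher were *Plxnd1*, the receptor of *Sema3e*, and the class 3 ligand *Sema3f*. The criteria were a ratio of 0.66 or less together with a Z-score of −2.0 or less, or a ratio of 1.5 or more together with a Z-score of 2.0 or more. The Z-score is the distance of a log2 ratio, in SDs, from the mean of the 1000 probes nearest in signal. The 3 lower genes were 9.68% of the members, while 3.39% of all 22012 genes measured were lower. The 2 higher genes were 6.45%, and the share of all genes was 2.37%. With 1 array for each genotype there is no error between mice and no test, and these counts describe the 2 pools.

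Each gene is given by its brightest probe, as the processed signal of both arrays in arbitrary units and as the log2 ratio of Cx30 KO over WT after each array was scaled to its 75th percentile. The only errors that the arrays allow are technical. The log2 ratio had an SD of 0.06 between single spots of the same probe, over 278 probes printed 10 times. The SD of the log2 ratio between different probes of the same gene was 0.26, over 7147 genes.

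The probes behind the 5 genes are given in part, to show which stretch of each transcript was measured. Each line holds 30 of the 60 bases of a probe as the array files give them, 5′ to 3′, and capitals mark the polyadenylation signal AATAAA where the probe holds it.
Plxnb3 brighter probe: aaagtgactgacctgtgaactagggccaca
Plxnb3 dimmer probe: gctgatagggcagcagggaacagtggagtg
Sema3e brighter probe: tctgactagatactggagtgtctttgtctc
Sema3e dimmer probe: tgtaattcttcttgtttgtagtcacatgtt
Sema3a brighter probe: tcattgcatttcagatgggaactagaaaac
Sema3a dimmer probe: gtgttttatctcaatgagagtgaaactata
Plxnd1 brighter probe: aacattctttatAATAAAagcctgccggga
Plxnd1 dimmer probe: agggaatttctgcttcagccaccaagcagt
Sema3f brighter probe: ttccatcttgctAATAAAtgctggctctgg
Sema3f dimmer probe: aaccctatcagacagtgccgtggtttcaat

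In the mm9 build the *Plxnb3* probes lie on the plus strand of chromosome X, the brighter at chrX:71017572-71017631 and the dimmer upstream of it at chrX:71014647-71014706. The brighter *Plxnd1* probe, at chr6:115904829-115904888 on the minus strand, holds the polyadenylation signal, and the dimmer lies at chr6:115905315-115905374. The brighter *Sema3f* probe, at chr9:107583833-107583892 on the minus strand, also holds it. The dimmer *Sema3f* probe covers 339 bases of the genome, chr9:107586002-107586340, and so crosses an intron. The *Sema3e* probes lie at chr5:14256431-14256490 and chr5:14231896-14231955, the second from an Ensembl transcript, and the *Sema3a* probes at chr5:13602449-13602508 and chr5:13600898-13600957, all on the plus strand.

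The class 3 semaphorins are secreted ligands, and all 7 were measured. *Sema3a*, the ligand of *Nrp1* and A-type plexins that makes growth cones collapse, gave 504 in WT and 304 in Cx30 KO. The log2 ratio was −0.66 with a Z-score of −2.12. Its dimmer probe gave 54.9 and 37.1, a log2 ratio of −0.49. Both probes were thus lower in Cx30 KO, with the dimmer one short of the criteria.

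*Sema3e*, which binds *Plxnd1* without a neuropilin, gave 667 in WT and 388 in Cx30 KO. The log2 ratio was −0.71 with a Z-score of −2.26. The dimmer probe was well above background in WT alone, at 28.0 against 17.7 in Cx30 KO, and so at least 1.51-fold lower. *Sema3f*, the main ligand of *Nrp2*, went the other way, with 2113 in WT and 3063 in Cx30 KO. The log2 ratio was 0.61 with a Z-score of 2.28, and the probe that crosses the intron gave 58.9 and 95.2, a log2 ratio of 0.77.

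The other four class 3 ligands did not meet the criteria. *Sema3b* gave 147 in WT and 205 in Cx30 KO (log2 ratio, 0.55), and *Sema3d* gave 134 and 94.5, a log2 ratio of −0.44. *Sema3c* gave 181 on both arrays, a log2 ratio of 0.07, while its dimmer probe, above background in WT alone, was at least 1.26-fold lower in Cx30 KO. *Sema3g*, which is made by arterial endothelium, gave 334 and 292, a log2 ratio of −0.12, and its dimmer probe, above background in Cx30 KO alone, was at least 1.13-fold higher there. Over the class, 4 of the 7 log2 ratios were below 0, and they ranged from −0.71 to 0.61 around a median of −0.12.

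**Figure D1:**
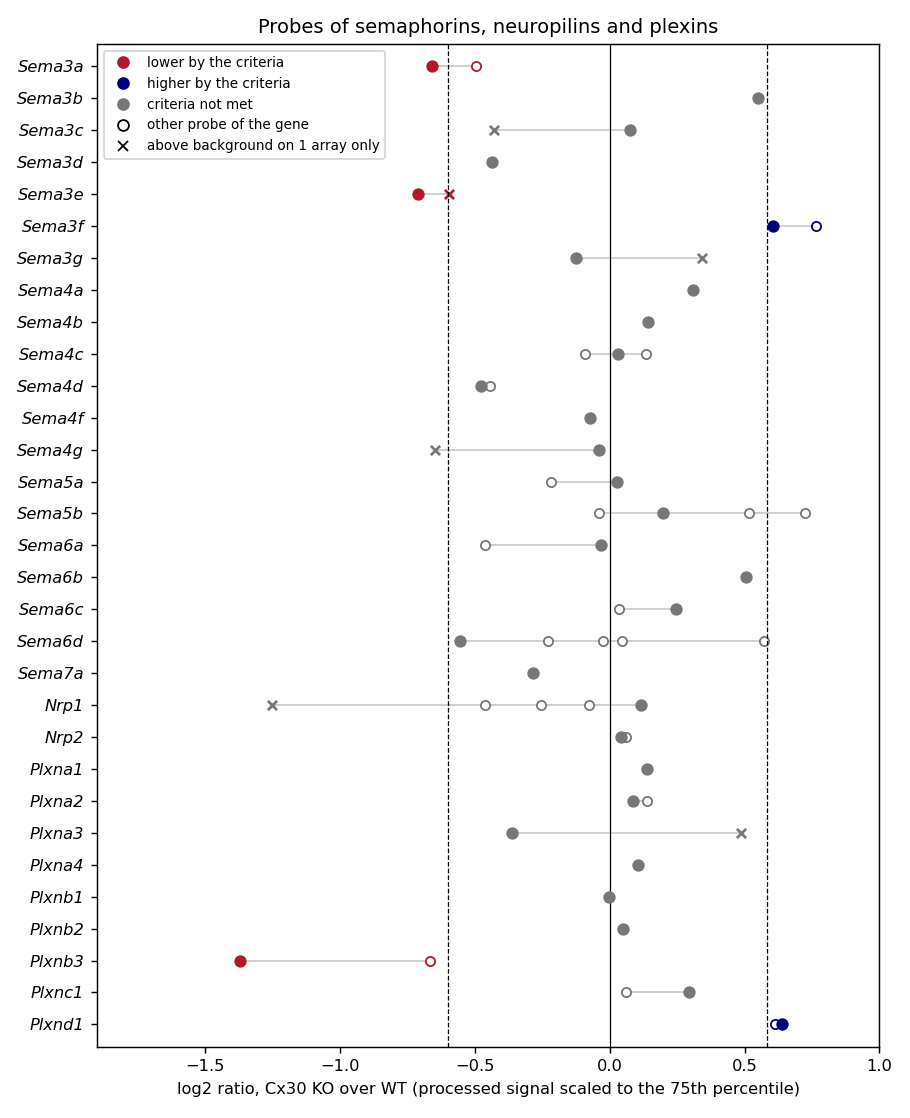
Log2 ratio of Cx30 KO over WT (horizontal axis) for each probe of the 31 genes that was well above background on at least 1 array. Filled circles are the brightest probe of a gene, open circles its other probes and crosses probes above background on 1 array alone; dashed lines mark ratios of 0.66 and 1.5. Both *Plxnb3* probes lie left of 0 and both *Plxnd1* and *Sema3f* probes right of it, while the probes of *Nrp1* and *Sema6d* spread to both sides.

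Of the 13 membrane-bound semaphorins of classes 4 to 7, none (0) met the criteria in either direction. Their log2 ratios ranged from −0.55 to 0.51 around a median of 0.03, and the median of all genes was also 0.03. In class 4, *Sema4d*, a ligand of *Plxnb1* that oligodendrocytes carry, gave 3169 in WT and 2166 in Cx30 KO (log2 ratio, −0.48). Its other probe gave 362 and 253, a log2 ratio of −0.44, so that both probes were lower by nearly the same amount. *Sema4a*, known from immune cells, gave 2411 and 2842, a log2 ratio of 0.31. At their brightest probes the log2 ratios of the other four lay within the SD between probes: *Sema4b* gave 39.6 and 41.7 (0.14), *Sema4c*, a ligand of *Plxnb2*, 4109 and 3998 (0.03), *Sema4f* 473 and 428 (−0.07), and *Sema4g* 134 and 124 (−0.04).

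In class 5, *Sema5a*, a ligand of *Plxnb3*, gave 4308 in WT and 4176 in Cx30 KO (log2 ratio, 0.03). That probe is named after a full-length cDNA, and the probe of the RefSeq transcript gave 296 and 242, a log2 ratio of −0.22. *Sema5b* gave 537 and 587, a log2 ratio of 0.20, and its dimmer probes gave 0.52, −0.04 and 0.72. The 3 probes that stand for its RefSeq transcript were all above 0.

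In class 6, whose members bind A-type plexins directly, *Sema6b* gave 2367 in WT and 3197 in Cx30 KO (log2 ratio, 0.51), with a Z-score of 1.84. *Sema6a*, which is found in oligodendrocytes, gave 375 and 349, a log2 ratio of −0.03, and its dimmer probe gave 143 and 98.8, a log2 ratio of −0.46. *Sema6c* gave 283 and 320, a log2 ratio of 0.25. *Sema6d*, a ligand of *Plxna1*, gave 542 and 352 at its brightest probe, a log2 ratio of −0.55 with a Z-score of −1.69. Its other four probes gave −0.02, 0.57, 0.04 and −0.23, so that the direction of *Sema6d* depended on the probe. *Sema7a*, the membrane-anchored ligand of *Plxnc1*, gave 9025 and 7063, a log2 ratio of −0.28, and had a single probe.

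The neuropilins, the co-receptors of class 3 semaphorins, lay close to 0 at their brightest probes. *Nrp1*, which also binds VEGF, gave 2513 in WT and 2591 in Cx30 KO (log2 ratio, 0.12). Its other four probes were all below 0, at −0.46, −0.26, −0.08 and, for a probe above background in WT alone, at least 2.26-fold lower. *Nrp2* gave 2007 and 1967, a log2 ratio of 0.04, and its dimmer probe gave 0.06. The ligands of these receptors that met the criteria thus differed in opposite directions, *Sema3a* lower and *Sema3f* higher, while the brightest probes of the receptors lay within the SD between probes.

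Of the A-type plexins, the signalling receptors of classes 3 and 6, none (0) met the criteria. *Plxna1* gave 178 in WT and 187 in Cx30 KO, *Plxna2* 2773 and 2801, and *Plxna4* 1619 and 1658. Their log2 ratios were 0.14, 0.09 and 0.11. *Plxna3*, a receptor for *Sema3f*, gave 134 and 99.4, a log2 ratio of −0.36, whereas its second probe gave 20.2 and 26.9, was above background in Cx30 KO alone and was at least 1.40-fold higher there.

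The B-type plexins bind class 4 and class 5 semaphorins, and they differed from each other. *Plxnb3* gave 507 ± 50.9 in WT and 187 ± 19.1 in Cx30 KO; the errors are the scanner software's own estimates for a single spot and not a spread between mice. The log2 ratio was −1.37, that is 2.58-fold lower in Cx30 KO, with a Z-score of −3.93, and 1.74% of all genes had a lower log2 ratio. The dimmer probe gave 43.1 and 25.9, a log2 ratio of −0.67, or 1.59-fold lower. *Plxnb1*, the receptor of *Sema4d*, gave 1172 and 1113, a log2 ratio of 0.00, and *Plxnb2* gave 1906 and 1880, a log2 ratio of 0.05.

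*Plxnc1*, the receptor of *Sema7a*, gave 147 in WT and 171 in Cx30 KO (log2 ratio, 0.29), and its dimmer probe gave 54.2 and 53.8, a log2 ratio of 0.06. *Plxnd1*, which is known from endothelium and from the striatal neurons of the direct pathway, gave 5808 ± 581 in WT and 8602 ± 860 in Cx30 KO, by the same error estimates. The log2 ratio was 0.64 with a Z-score of 2.73. Its dimmer probe gave 429 and 625, a log2 ratio of 0.61 with a Z-score of 1.97. *Plxnd1* was thus higher at both probes while its ligand *Sema3e* was lower.

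**Figure D2:**
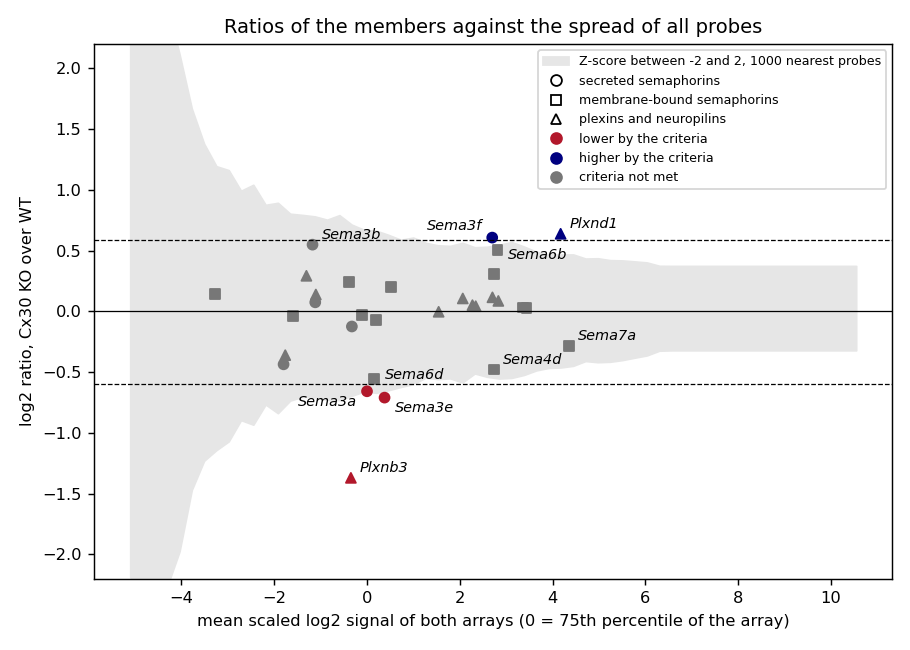
Log2 ratio of Cx30 KO over WT (vertical axis) against the mean scaled log2 signal of both arrays (horizontal axis) for the brightest probe of each of the 31 genes. The grey band spans Z-scores between −2 and 2, drawn from points spaced along the signal axis, and dashed lines mark ratios of 0.66 and 1.5. The 5 coloured genes met both limits and lie outside the dashed lines, with *Plxnb3* farthest from 0 at −1.37. *Sema3a* lies at the edge of the band as drawn. *Sema6b*, *Sema6d* and *Sema4d* lie inside the band and the dashed lines.

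Over the 20 semaphorins, 10 log2 ratios were below 0 and 10 above, with a median of 0.00. Over the 11 plexins and neuropilins, 3 were below 0 and 8 above, with a median of 0.09. In 10 of the 15 members with at least 2 probes above background on both arrays, all such probes had the same sign, which is 66.7%, against 57.4% of all 7147 genes of that kind.

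Since *Plxnb3* and *Plxnd1* were the called members with the lowest and the highest log2 ratio, the 250 bases upstream of their starts are shown, from RefSeq in the GRCm38.p6 build, 5′ to 3′ on the gene's strand. Capitals mark ACAAAG and ACAATG, core sequences that SOX factors such as SOX10 of oligodendrocytes can bind, on either strand. The motifs were chosen after the *Plxnb3* sequence had been seen. The sequences lie at chrX:73756853-73757102 on the plus strand and chr6:115995006-115995255 on the minus strand.
Plxnb3 upstream: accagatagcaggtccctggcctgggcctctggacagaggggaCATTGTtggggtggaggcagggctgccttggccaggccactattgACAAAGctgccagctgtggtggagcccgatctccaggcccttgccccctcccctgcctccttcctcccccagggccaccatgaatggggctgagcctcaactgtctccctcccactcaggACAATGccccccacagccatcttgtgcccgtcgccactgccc
Plxnd1 upstream: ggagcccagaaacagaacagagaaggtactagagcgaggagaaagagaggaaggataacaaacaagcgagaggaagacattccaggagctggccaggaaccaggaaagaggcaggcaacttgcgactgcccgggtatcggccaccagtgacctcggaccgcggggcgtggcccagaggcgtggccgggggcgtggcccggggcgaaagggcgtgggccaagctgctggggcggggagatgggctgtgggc

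The *Plxnb3* sequence held 3 matches, 207, 162 and 42 bases upstream of the start, and 3 CpG dinucleotides. The *Plxnd1* sequence held none (0) of these letters and 16 CpG dinucleotides. At least 1 of the motifs was found in 25.2% of 32851 upstream sequences of the same length, and both in 1.91%. Of 37 such sequences that belong to 26 members, 8 (21.6%) held at least 1 motif, and 2 (5.41%) held both, those of *Plxnb3* and *Sema3a*. Since the motifs were chosen after the *Plxnb3* sequence was seen, its place among these 2 was fixed in advance. The share with both can therefore not be read as an excess. Of 10 sequences of 8 oligodendrocyte marker genes, 5 held ACAAAG, against 16.5% of all, and none (0) held ACAATG. These sequences are few, some share a gene, and their median count of CpG dinucleotides was 3.5 against 6 over all. The difference in ACAAAG was not tested and cannot be read as an excess. These matches describe the letters and not the binding of a factor.

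The members were then set beside marker lists of the cell types they are expected in. In bulk tissue, fewer cells of a type and less RNA per cell cannot be told apart. At their brightest probes all 10 oligodendrocyte markers were lower in Cx30 KO. Their log2 ratios ran from −1.43 to −0.44 with a median of −0.73, and 7 met the criteria. Another probe was above 0 for *Mag*, *Cnp* and *Mbp*, at 0.24, 0.19 and 0.12, and the other markers of the list had no probe above 0. Their summed scaled signal was 396 in WT and 247 in Cx30 KO, in multiples of the array's 75th percentile. *Plxnb3*, at −1.37, lay within the range of these markers, near its lower end at *Ugt8a*, an enzyme of myelin lipid synthesis, at −1.43. The brightest probes of all other markers of the list lay above *Plxnb3*, the nearest being that of *Cldn11* at −1.12. *Sema4d*, at −0.48, also lay within it, whereas *Sema6a*, at −0.03, lay outside. The part of this list in the values of *Plxnb3* and *Sema4d* was not tested. Of the 5 oligodendrocyte precursor markers 4 were below 0, with a median of −0.35, and *Sema5a*, which these cells make, was at 0.03.

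Of the 8 endothelial markers 6 were below 0, with a median of −0.17, and their summed scaled signal was 47.4 in WT and 41.9 in Cx30 KO. Only *Flt1*, at −0.93, met the criteria, and another probe of it was at 0.52. *Sema3g*, *Nrp1* and *Plxnd1*, the members expected there, were at −0.12, 0.12 and 0.64. *Plxnd1* lay above the highest endothelial marker, *Pecam1*, at 0.58, but by less than the SD between probes. The 9 markers of striatal projection neurons had log2 ratios from −0.40 to 0.23. *Drd1* and *Tac1*, which mark the direct pathway, were at 0.05 and −0.31. *Plxnd1* thus also lay above the brightest probe of every marker of this list, but another probe of *Tac1* was at 0.96.

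Of the 10 lists, the one whose log2 ratios lay farthest from 0 was that of cortical projection neurons. All 7 had higher signals in Cx30 KO, 5 of them by the criteria, and the sum of their scaled signals was 0.916 in WT against 4.37 in Cx30 KO. *Slc17a7*, their vesicular glutamate transporter, was not well above background in WT and was at least 12.1-fold higher in Cx30 KO. *Sema3e* and *Sema7a*, which are expected in cortical projection neurons, were at −0.71 and −0.28, opposite in direction to the list. The part of this list in the higher values of *Plxnd1* and *Sema3f* was not tested. *Plxna4*, *Plxna2* and *Sema3a*, which neurons of many kinds make, were at 0.11, 0.09 and −0.66.

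Of the other lists, 7 of 8 microglial markers were below 0, with a median of −0.52, and 4 met the criteria. The summed scaled signal of this list was 227 in WT and 220 in Cx30 KO. *Itgam*, its brightest marker, was at 0.13. The medians were −0.03 for 8 astrocyte markers, 0.18 for 5 mural markers, 0.09 for 6 interneuron markers, and −0.58 for 5 markers of choroid plexus and ependyma. Single genes of these lists were lower by the criteria: *Aqp4* of astrocytes at −0.95, *Pvalb* of interneurons at −1.27, and *Ttr* and *Ccdc153* of choroid plexus and ependyma at −1.27 and −1.06. The probes of *Aqp4* ran from −4.24 to 0.02. When the probes of a gene were averaged, the mural median was −0.03, the interneuron median 0.00 and that of striatal projection neurons 0.01 in place of −0.16. With normexp background correction the median of choroid plexus and ependyma was −0.28.

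**Figure D3:**
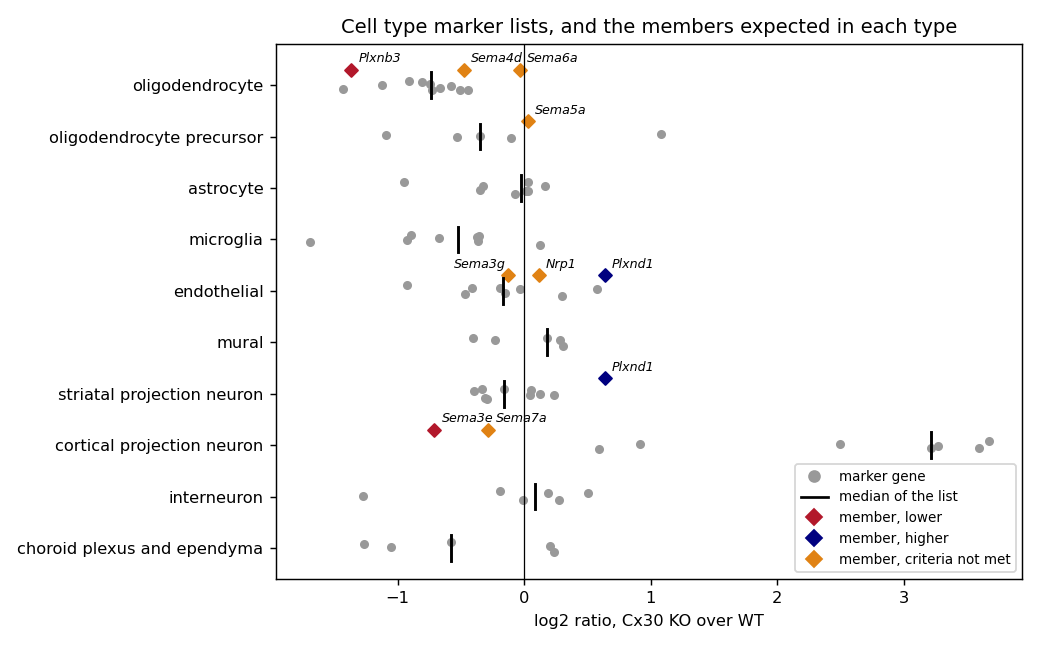
Log2 ratio of Cx30 KO over WT (horizontal axis) for marker genes of 10 cell types (grey points, with the median of each list as a vertical bar) and for the members expected in a type (diamonds). Each gene is drawn at its brightest probe. All 10 oligodendrocyte markers and *Plxnb3* lie below 0, and *Sema3e* and *Sema7a* lie below 0 where all 7 cortical markers lie above it.

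Of 46 co-receptors and downstream genes of semaphorin signalling, all of which were above background, 2 were lower by the criteria and 1 was higher. That is 4.35% and 2.17%, close to the 3.39% and 2.37% of all genes. *Met*, a receptor tyrosine kinase that associates with B-type plexins, gave 86.2 in WT and had no signal well above background in Cx30 KO, so that it was at least 4.73-fold lower. *Rap1a*, a small GTPase on which the GAP domain of plexins acts, gave 1451 and 886, a log2 ratio of −0.64, and its other probes reached −0.04. *Tiam1*, an exchange factor of *Rac1*, gave 1112 and 1704, a log2 ratio of 0.69, and its 3 probes lay between 0.50 and 0.89.

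Of the 13 co-receptors and adhesion partners, 11 were below 0 at their brightest probe, with a median log2 ratio of −0.36. Of all 22012 genes, 10002 were below 0. Among them were *Cd72*, a receptor of *Sema4d* on immune cells, at −0.64, and *Trem2* and *Tyrobp*, microglial partners of *Plxna1*, at −0.38 and −0.36. The part of the microglial list in these values was not tested. *Chl1*, *Nrcam* and *L1cam*, adhesion molecules that associate with neuropilins, were at −0.56, −0.40 and −0.11. Another probe of *Chl1* was at 0.02 and another of *L1cam* at 0.10. The 2 genes above 0 were *Itga1*, an integrin subunit, at 0.88, and *Erbb2*, a receptor tyrosine kinase that associates with B-type plexins, at 0.60, and neither met the Z-score limit. The second probe of *Itga1* was at −0.34. The medians of the GTPases and exchange factors, the kinases, the collapsin response mediators, and the oxidoreductases and adaptors were −0.13, −0.09, 0.13 and 0.14.

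The 5 called members kept their direction under every other way of processing that was run, but not all kept the criteria. *Plxnb3* met them under all of these settings, with log2 ratios from −1.42 to −1.02. *Plxnd1* did so except with a Z-score over all probes above background and with ratio limits of 2 and 0.5. *Sema3e*, *Sema3a* and *Sema3f* lay nearer to the limits and also lost the call when the probes of a gene were averaged. *Sema3a* lost it too with normexp background correction and with a Z-score over the 200 nearest probes, and *Sema3f* with scaling by the array median. *Sema6d* was at −0.04 when its probes were averaged.

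**Figure D4:**
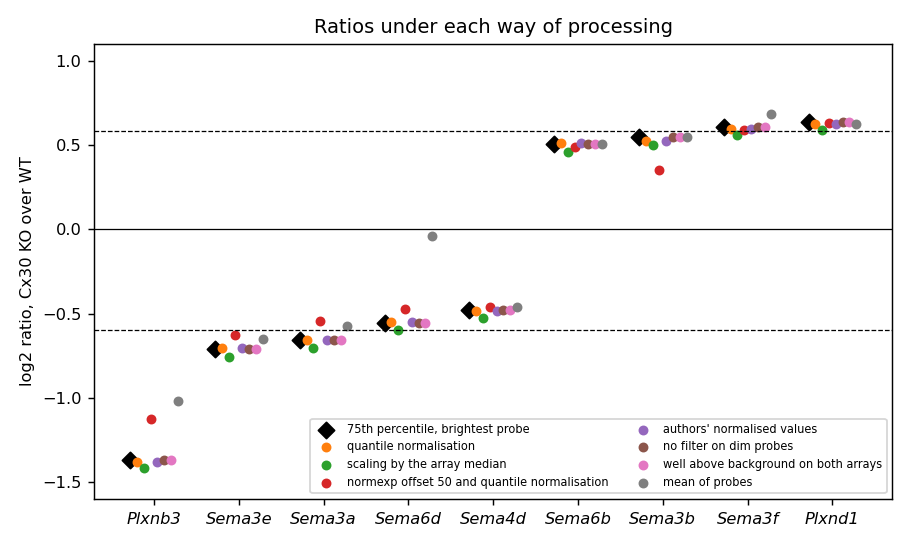
Log2 ratio of Cx30 KO over WT (vertical axis) of the 5 called members and 4 members near the limits under each scaling, filter and probe rule. Black diamonds are the reported values, coloured points the alternatives and dashed lines ratios of 0.66 and 1.5; *Plxnb3* stays below −1, and *Sema3a* and *Sema3f* lie on both sides of a dashed line.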

How the data were processed

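Striatal RNA of the 2 pools was amplified, labelled and hybridised by the authors to Agilent arrays of 60-mer probes. The deposited processed signals are linear intensities from Agilent Feature Extraction, background-subtracted and detrended within each array and not normalised between arrays. The file headers give version 10.7.1.1 and the submitters' notes 9.5.1.1. The deposited table of normalised intensities was positive and linear, and 100.0% of its values (to 3 digits) lay within 1% of the quantile-normalised processed signals; its centring is not stated, and the column medians were 41.2 in WT and 41.2 in Cx30 KO.

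Control and outlier spots were dropped, the log2 signals of repeated spots were averaged, and each array was scaled to its 75th percentile, 401.0 in WT and 382.0 in Cx30 KO. A probe whose spots were flagged as well above background in 50% or more of cases counted as such (56.6% of WT and 58.2% of Cx30 KO probes); the lowest such signals were 19.8 and 17.4, and no probe (0) was saturated. A gene was represented by its brightest such probe. Where 1 array alone was above background, the fold was limited by the higher of the lowest such signal and the gene's own. Older symbols of 2038 probes were updated through a RefSeq table, none of them a member's. The paper names no reference probes for its Z-score, so the 1000 probes nearest in mean signal were used, among all probes; a trial with only probes above background came first, was replaced once the counts over all genes had been seen, and is given among the alternatives. Members and lists were chosen with earlier results of these data known. Every member above background is named, and probe by probe where it met the criteria or its probes took opposite signs by more than the SD between probes; pathway genes are named where they met the criteria, and *Cd72*, *Trem2*, *Tyrobp*, *Chl1*, *Nrcam*, *L1cam*, *Itga1*, *Erbb2* and the marker genes named were chosen after their values were seen. With 1 array for each genotype, no test was run, and precision is limited by the number of arrays. The functions were tested on simulated arrays. Python 3.11.15, numpy 2.4.6, pandas 2.3.3 and, for normexp background correction with an offset of 50, limma 3.58.1 in R 4.3.3 were used. The alternatives were other scalings, background correction, filters, probe rules, Z-score references and ratio limits.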

Additional observations from a re-analysis of the deposited data

How the results depend on the processing

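Of 217 alternative values of the 31 members, 212 lay within the SD between probes of the reported value, and no called member (0) changed sign. Many of these values could hardly differ, so the count says little about robustness. The filters on background changed no member's value, and averaging cannot change a gene with a single probe above background. The authors' normalised values nearly repeat quantile normalisation. The 3 lower members became 1, *Plxnb3*, when the probes of a gene were averaged, with a Z-score over all probes above background, and with ratio limits of 2 and 0.5. They became 2, without *Sema3a*, with normexp and with a Z-score over the 200 nearest probes. The 2 higher members became 1, *Plxnd1*, with scaling by the array median and with averaged probes, and 0 with a Z-score over all probes above background and with ratio limits of 2 and 0.5. The 2 lower pathway genes became 1 with normexp, with genes above background on both arrays, with a Z-score over all probes above background, and with ratio limits of 2 and 0.5. The single higher pathway gene became 0 with that Z-score and with those limits, and 3 with the ratio limits alone. The 746 lower and 522 higher genes over the whole array became 446 and 484 with that Z-score, 428 and 340 with limits of 2 and 0.5, 1367 and 1589 with the ratio limits alone, and 502 and 328 for genes above background on both arrays. Taking the 1000 nearest among probes above background gave 617 and 414 genes and left the members at 3 and 2; this reference was tried first, and the reported one, among all probes, was chosen after these counts had been seen. The medians stayed between −0.05 and 0.00 for semaphorins and between 0.04 and 0.09 for plexins and neuropilins. The median of cortical projection neuron markers was 3.22 and fell to 0.84 with normexp, and averaging took that of oligodendrocyte markers from −0.73 to −0.67. Averaging moved *Plxnb3* to −1.02, *Nrp1* to −0.39, *Sema4g* to −0.34, *Sema6d* to −0.04 and *Plxna3* to 0.06; the last and *Nrp1* then had the opposite sign to their brightest probe. No paired analysis was possible because each genotype has a single array, and no replicate could be left out. Signal over background limits *Sema4b*, whose only probe gave 39.6 and 41.7.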
